A study of Mus musculus with 2 samples.

Results

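Hepatokines are proteins that the liver secretes and that act on other tissues. The hepatokine genes described here are Fgf21, Nrg4, Angptl4, Angptl6, Igf1, Fetub, Ahsg and Lect2, which are 8 of the 15419 genes measured. They were picked by name, partly because Fgf21 and Nrg4 had moved in opposite directions on these same arrays, so their differences are descriptions. All 13 array probes that carry those names were taken. Cultured mouse primary hepatocytes, which are liver parenchymal cells taken into culture, received 50 pmol of G0s2 siRNA or 50 pmol of control siRNA. RNA was measured 24 hours after transfection on 1 array for G0s2 siRNA and 1 array for control siRNA. Strain, age, sex and the number of animals behind the cells are not given in the sources used here. A difference therefore compares a pair of arrays, with no replicate check and no test, and cultures, extractions and labellings cannot be told apart from the siRNA.

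The protein made from G0s2 blocks adipose triglyceride lipase, which takes the first step in breaking down stored triglyceride. FGF21 is an endocrine growth factor that signals through FGF receptors together with the co-receptor beta-Klotho (Klb), and in liver its gene is known as a target of the fasting receptor PPARalpha, of the stress factor ATF4 and of the sugar-sensing factor ChREBP. NRG4 is an EGF-like ligand of the ErbB receptors, best known as a secreted product of brown fat. ANGPTL4 inhibits lipoprotein lipase, IGF1 carries much of the growth response to growth hormone, and fetuin-A (Ahsg) and fetuin-B (Fetub) are plasma proteins of the cystatin family. LECT2 is a chemotactic protein of hepatocytes, and ANGPTL6 is an angiopoietin-like factor linked in mice to energy expenditure.

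The sequences that matter most are those of the probes behind Fgf21 and Nrg4, because each call rests on what those probes hybridise with. The Fgf21 probe, A_52_P235347 for transcript NM_020013, lies on the minus strand at chr7:52869305-52869364 of mm9. Its last 30 bases are shown with every run of 3 or more T in capitals. Nrg4 has a pair of probes for NM_032002. A_55_P2185905 maps to chr9:55075745-55084303 on the minus strand of mm9, a span of 8559 bases for a probe of 60, so it crosses at least 1 splice junction, and it is shown whole. A_55_P2185900 lies at chr9:55068030-55068089 on the minus strand, and 30 of its bases are shown with an AATAAA hexamer in capitals.
Fgf21: aTTTatcttaTTTaTTTaTTTTagTTTTTT
Nrg4 junction: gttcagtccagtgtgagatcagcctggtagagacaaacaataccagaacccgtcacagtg
Nrg4 end: aaacctccttttAATAAActccgactctac
Of the 60 bases of the Fgf21 probe, 38 are T, 10 are A and 12 are G or C, a GC content of 20%. Of the 14121 genes measured on both arrays, 10 had a probe with GC content that low or lower, Fgf21 included, and the median was 41.7%. The Nrg4 probes had 50.0% and 41.7% GC, at transcript positions 459 and 1867. Whether these bases lie in coding sequence or a UTR was not looked up, since exon annotation on mm9 was not used here.

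In the following, a signal is the scanner's background-corrected intensity, and a level is its log2 minus that of the array's 75th percentile (728 on the G0s2 siRNA array and 418 on the control siRNA array). A difference is the G0s2 siRNA level minus the control siRNA level, and its error is the scanner's own. Levels of different probes are not compared. At the 2-fold rule, a log2 difference of at least 1, 4.81% of all measured genes were higher and 5.46% were lower with G0s2 siRNA. Of the 8 hepatokine genes 1 was higher (Nrg4) and 1 was lower (Fgf21), and the other 6 lay between -0.62 and 0.41. The median difference of the 8 was 0.00, against -0.03 over all genes. G0s2 itself was 6.50-fold lower, with a level of -2.83 on the G0s2 siRNA array and -0.13 on the control siRNA array and a difference of -2.70 ± 0.21.

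**Figure D1:**
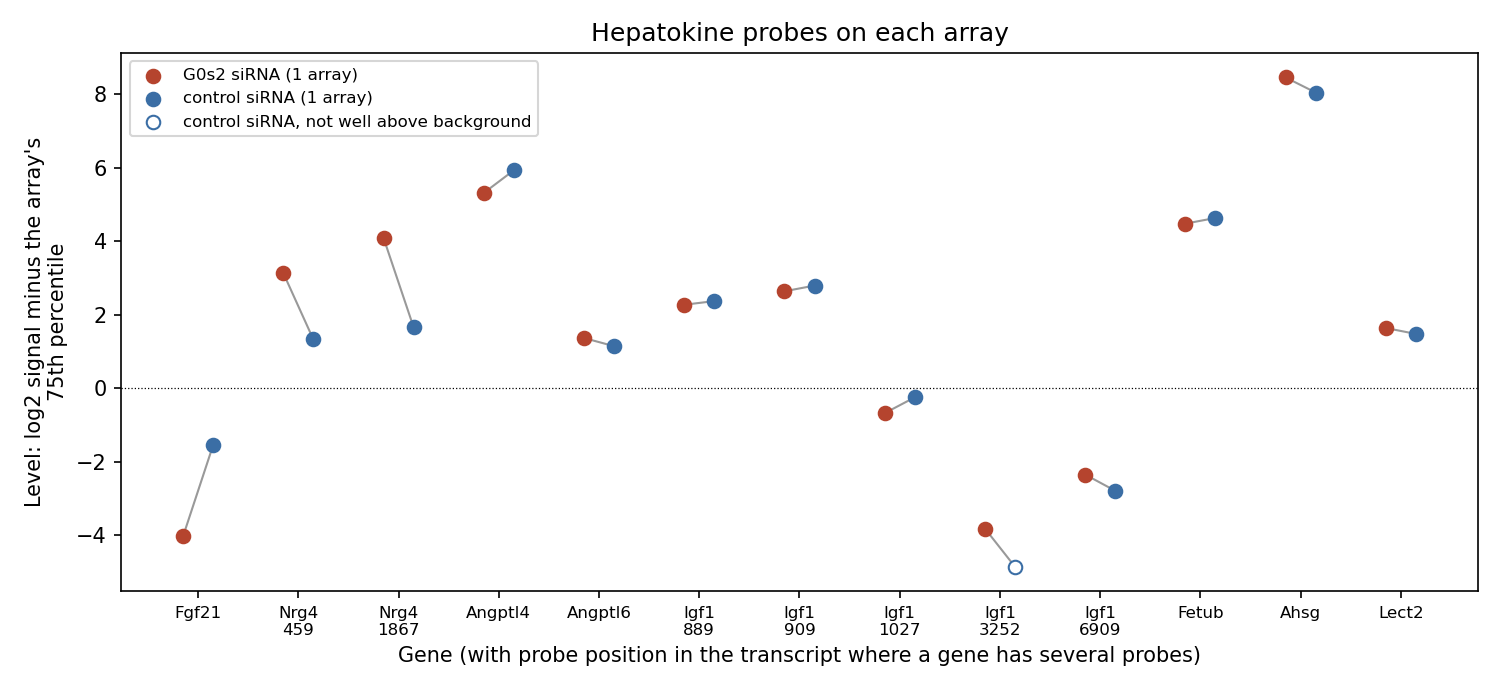
Level of each hepatokine probe (y axis, log2 signal minus the array's 75th percentile) on the G0s2 siRNA array (left point of each pair) and the control siRNA array (right point), 1 array each; numbers under a gene give the probe's position in the transcript. Fgf21 lies at -4.03 against -1.55 and the Nrg4 probe at 1867 lies at 4.09 against 1.66, while the open point marks a control value not well above background; heights are not compared between probes.

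Fgf21 was 5.59-fold lower with G0s2 siRNA. Its signal was 44.6 on the G0s2 siRNA array, against 143 on the control siRNA array, and its level was -4.03 against -1.55. The difference was -2.48 ± 0.24, against -1.75 with normexp background correction and -0.91, within 2-fold, with the arrays centred on spike-in probes. Fgf21 was also the 1 hepatokine gene whose uncentred signal was lower on the G0s2 siRNA array, while the signals of the other 7 were higher there. The spot stood well above background on both arrays, with raw means of 125.0 over a local background of 66 with G0s2 siRNA and 223.8 over 60 with control siRNA. The brightest of 153 negative control spots had a processed signal of 20.6 on the G0s2 siRNA array and 6.11 on the control siRNA array.

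The Fgf21 probe was printed as 1 spot, so its value has no repeat within an array. Probes printed in 10 spots give a view of spot noise at its brightness on each array. For signals of 25 to 100, which hold its value on the G0s2 siRNA array, the median SD of log2 signal between spots there was 0.14 over 42 probes and the highest was 0.66. For signals of 100 to 1000, which hold its value on the control siRNA array, the median SD there was 0.06 over 94 probes and the highest was 0.16. Of the 14121 genes measured on both arrays, 33 were as low as Fgf21 or lower, itself included, or 0.234%. Among 1256 genes whose mean level lay within 0.5 of that of Fgf21, 6.77% were at least 2-fold lower and 6 were as low. The 9 other genes with probe GC content as low ranged from -0.84 to 0.76 with a median of -0.23. By difference, the genes nearest to Fgf21 over the 2 arrays were Slc6a9 (-2.50), Pigt (-2.45) and Ly6a (-2.44).

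The promoter of Fgf21 is shown because the factors set beside it below are known to act on that gene. The window runs from 250 bases before to 50 after the start, from RefSeq on GRCm38.p6, chr7:45615441-45615740, minus strand. Capitals mark 3 motifs found by a search of both strands: TTGCATCA, which is the ATF4 core TGATGCAA read on the other strand, at -139 to -132, an E-box CACGTG at -50 to -45, and a TATA box TATAAA at -28 to -23.
Fgf21 promoter: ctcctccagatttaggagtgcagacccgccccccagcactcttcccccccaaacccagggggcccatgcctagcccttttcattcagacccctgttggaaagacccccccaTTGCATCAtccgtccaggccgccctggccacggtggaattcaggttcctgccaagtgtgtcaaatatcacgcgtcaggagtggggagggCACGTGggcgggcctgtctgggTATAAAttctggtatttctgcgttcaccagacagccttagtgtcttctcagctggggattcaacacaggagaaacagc
The motifs do not overlap. Of 32851 promoter windows of that length, 0.895% hold TGATGCAA, 7.15% hold CACGTG, 13.6% hold TATAAA and 0.0396% hold the PPAR response element as searched. Of the 7 hepatokine genes with a window (all but Angptl4), Fgf21 alone held the first pair of motifs, TATAAA was also found in Fetub at -31 to -26, and the PPAR element was in none. A pattern this rare would be missing from almost any 7 windows, so its absence carries no weight. A match describes letters in a window, and no binding was measured.

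Nrg4 was higher with G0s2 siRNA at both of its probes. At position 1867 its signal was 12412 on the G0s2 siRNA array, against 1321 on the control siRNA array, and its level was 4.09 against 1.66, a difference of 2.43 ± 0.20 or 5.40-fold. The raw means at that probe were 11331.5 with G0s2 siRNA and 1506.5 with control siRNA. The scanner's processing thus raised the value on 1 array and lowered it on the other. With normexp, which starts from the raw means, the difference was 2.20. The junction probe at position 459 had a signal of 6392 with G0s2 siRNA and 1050 with control siRNA, and levels of 3.14 and 1.33. Its difference was 1.81 ± 0.20, or 3.50-fold. The probes share no bases, so the direction was seen in separate stretches of the transcript, within the same pair of labelled RNAs.

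The gap between the Nrg4 probes was 0.63, against a median of 0.27 and a 90th percentile of 0.88 over the 2843 genes with 2 probes. Of the 14121 genes measured on both arrays, 21 were as high as Nrg4 or higher, itself included, or 0.149%. Among the 1291 genes of like level (within 0.5), Nrg4 was the only 1 that high. The genes nearest to Nrg4 in difference were Tpm4 (2.42), Stx2 (2.46) and Pacc1 (2.47). Nrg4 and Fgf21 lay 4.92 apart on the log2 difference scale, a gap that does not depend on where the arrays are centred.

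**Figure D2:**
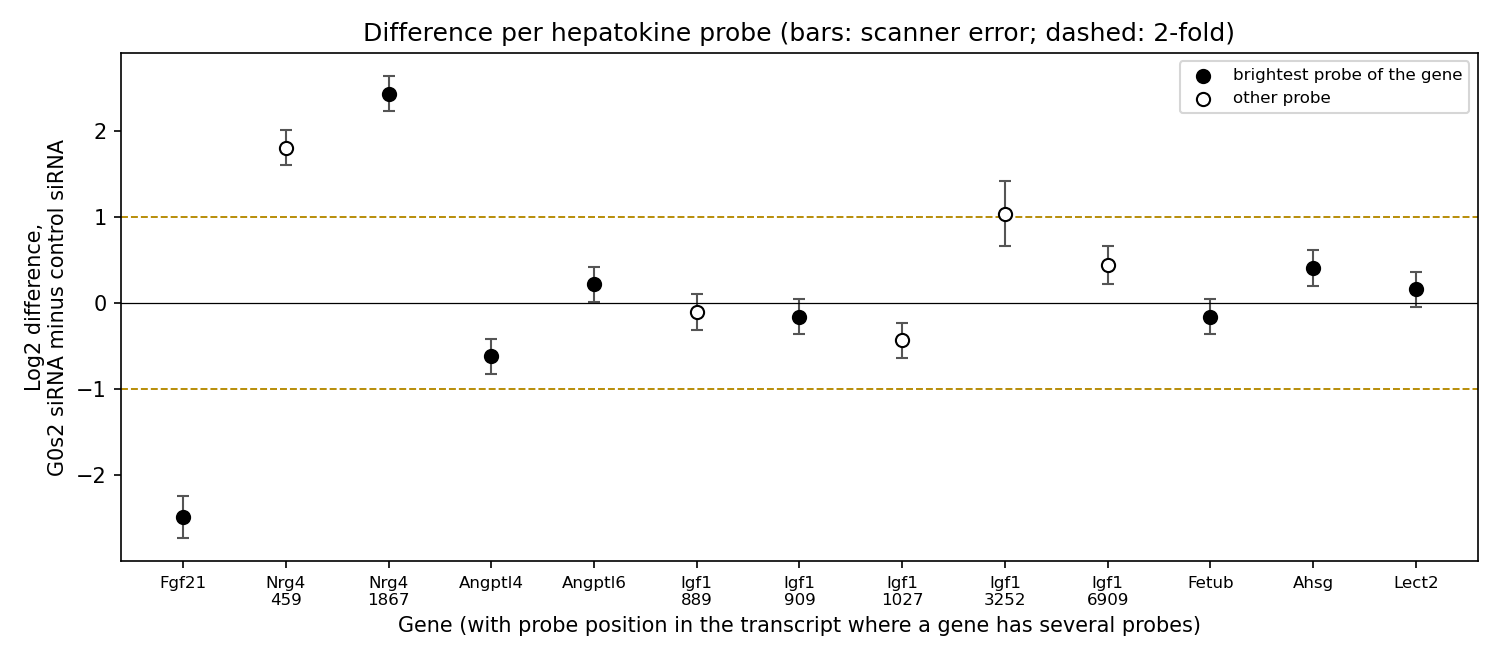
Log2 difference, G0s2 siRNA minus control siRNA (y axis), of all 13 hepatokine probes with the scanner's error as bars; filled points are the probe that stands for its gene. Fgf21 lies below the lower 2-fold line, both Nrg4 probes lie above the upper one, and the Igf1 probe at 3252, at 1.04 ± 0.375, was dim with control siRNA.

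The remaining angiopoietin-like genes differed by less than 2-fold. Angptl4 (A_51_P338443, NM_020581, chr17:33911880-33911939, minus strand, mm9) had a signal of 29012 on the G0s2 siRNA array and 25592 on the control siRNA array. Its level was 5.32 against 5.94 and its difference was -0.62 ± 0.20, or 1.53-fold lower, which turned to 0.96 when the arrays were centred on spike-in probes. Of the 14121 genes, 13.0% were as low as Angptl4 or lower. Among the 429 genes of like level, 6.53% were. Angptl6 (A_51_P259571, NM_145154, chr9:20678326-20678385, minus strand, mm9) had a signal of 1877 with G0s2 siRNA and 925 with control siRNA, and a difference of 0.22 ± 0.20.

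Igf1 was read by 5 probes on the plus strand of chromosome 10, and they did not move together. The brightest, at transcript position 909 (A_55_P2031631, chr10:87393581-87393640, mm9), had a signal of 4535 on the G0s2 siRNA array and 2903 on the control siRNA array, and a difference of -0.16 ± 0.20. The probe at 889, which shares 40 bases with it, gave -0.10 from a signal of 3517 with G0s2 siRNA and 2168 with control siRNA. The probe at 1027, made for transcript NM_184052 at chr10:87378456-87378515, gave -0.43 ± 0.20, with 454 on the G0s2 siRNA array and 352 on the control siRNA array. Farther along the transcript the values were positive. At 6909 the signal was 143 with G0s2 siRNA and 60.4 with control siRNA, a difference of 0.44 ± 0.22. At 3252 the signal was 51.5 with G0s2 siRNA and 14.4, not well above background, with control siRNA. The measured difference there was 1.04 ± 0.375, or 2.06-fold higher. The 792 genes with a probe within 25% of position 6909 had a median difference of 0.07, and the 2033 genes near position 909 had one of -0.13. The Igf1 probes at 909 and 6909 lay 0.60 apart. The positive Igf1 probes were also the dimmest of the 5, and the part of position or brightness in the split was not tested. With a trend over probe position removed, the value of the probe at 909 was -0.03 in place of -0.16.

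The fetuin genes, neighbours on chromosome 16, both stayed within 2-fold. Ahsg (A_51_P424854, NM_013465, chr16:22899415-22899474, plus strand, mm9) had a signal of 256654 on the G0s2 siRNA array and 111044 on the control siRNA array, with no spot saturated on either. Its level was 8.46 against 8.05, a difference of 0.41 ± 0.20. Of the 14121 genes, 18.2% were as high as Ahsg or higher, and among the 98 genes of like level 6.12% were. Fetub (A_55_P2050902, NM_021564, chr16:22939736-22939795, plus strand, mm9) had a signal of 16256 with G0s2 siRNA and 10406 with control siRNA, a level of 4.48 against 4.64 and a difference of -0.16 ± 0.20. The genes that follow them on the chromosome are other members of the cystatin superfamily. Hrg (histidine-rich glycoprotein) was at -0.56, Kng2 at 0.13 and Kng1 (kininogen 1, the bradykinin precursor) at 0.10. Kng2 was named for its position, after its value was seen.

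Lect2 (A_55_P2074762, NM_010702, chr13:56643829-56643888, minus strand, mm9) had a signal of 2268 with G0s2 siRNA and 1166 with control siRNA. Its level was 1.64 against 1.48 and its difference of 0.16 ± 0.20 was smaller than its error. Of the 14121 genes, 31.7% were as high as Lect2 or higher. For Igf1, Fetub and Lect2 the difference at the probe standing for the gene was smaller than the scanner's error, and for Angptl6 it was 1.09 times that error.

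**Figure D3:**
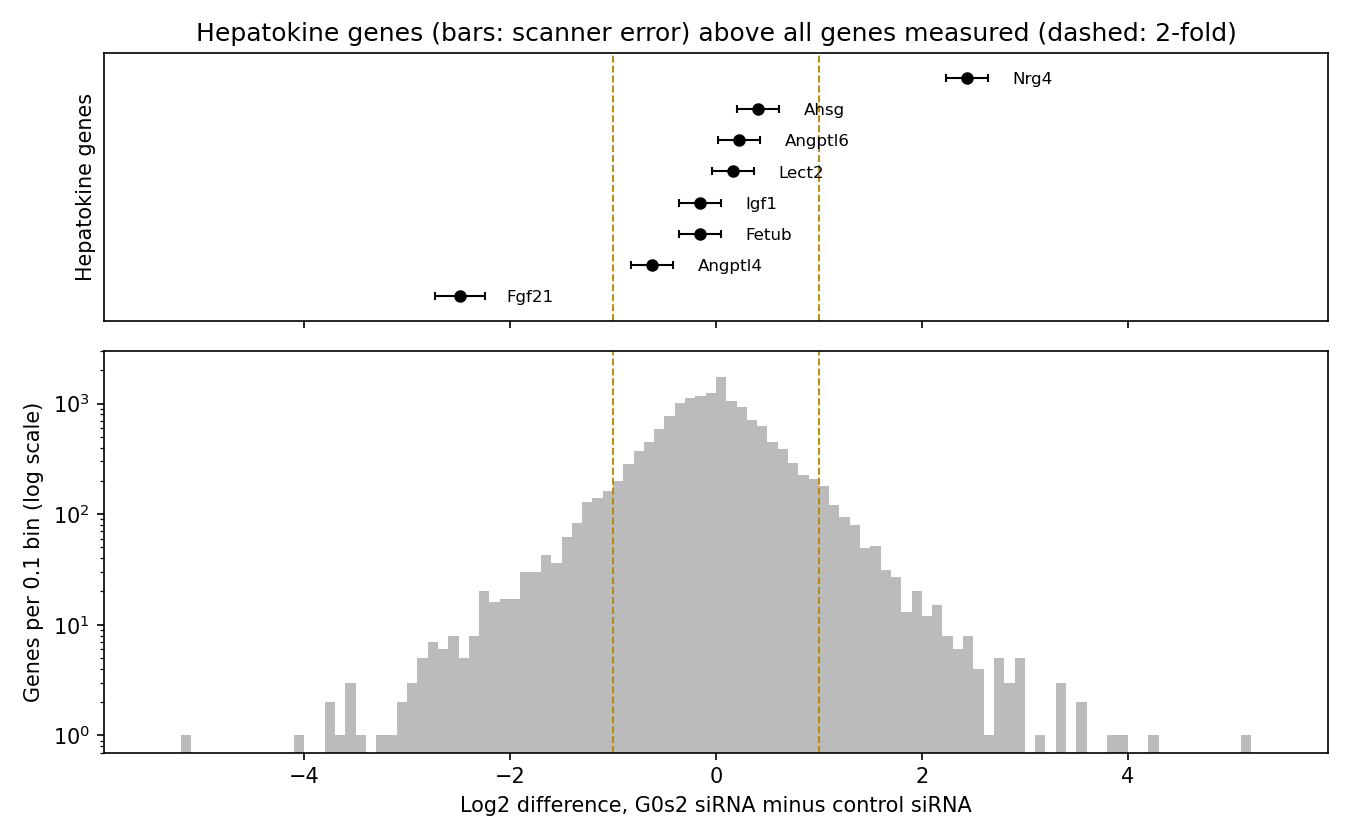
Upper panel, log2 difference (x axis, G0s2 siRNA minus control siRNA) of each hepatokine gene with the scanner's error; lower panel, number of genes per bin of 0.1 (log scale) for all 15419 genes measured. Fgf21 at -2.48 and Nrg4 at 2.43 lie in the thin tails and the other 6 lie in the bulk; the peak at 0 also holds genes dim on 1 array whose bound had no direction.

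The genes that act with each hepatokine were then read from lists, by the same 2-fold counts and medians. The all-gene shares of 4.81% higher and 5.46% lower and the median of -0.03 apply beside each, and a value given for a gene without a unit is its log2 difference. For FGF21 reception and ERK feedback, 10 of 14 genes were measured, 2 were higher and 1 was lower, with a median of 0.49. Klb had a level of -3.20 with G0s2 siRNA and -3.80 with control siRNA, a difference of 0.60 ± 0.26. Fgfr1 was at 1.09 at its brightest probe, while its other probes gave 0.06 and 0.99, and Fgfr2 was at -0.22. Fgfr3 was at 0.62 and 0.93 at its probes, and those of Fgfr4 went opposite ways, at -0.24 for the brightest and 0.67 for the other. Fgf1, another FGF receptor ligand, was at 1.12, with 0.21 at its other probe. Dusp6, a phosphatase induced by and acting on ERK, was 2.18-fold lower, with a level of 2.32 against 3.45.

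The genes of factors known to act on Fgf21, and of their targets, lay on both sides of 0. Ppara was at 0.94 at its brightest probe and at 0.06 and 0.62 at the others. Of 22 measured genes of its list 2 were higher, Slc25a20 (1.48, the mitochondrial carnitine carrier) and Cyp4a14 (1.02, a fatty acid hydroxylase). Another 2 were lower, Vnn1 (-1.97, a pantetheinase) and Creb3l3 (-1.37). Creb3l3 encodes CREBH, a liver transcription factor that is itself known to act on Fgf21, and its signal was 5592 on the G0s2 siRNA array and 8307 on the control siRNA array. The list's median was 0.18.

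Atf4 was at -0.08 at its brightest probe and at 0.46 at the other, and the 17 genes of the ATF4 and CHOP list had a median of -0.34. In it 1 gene was higher, Slc7a11 (2.56 ± 0.26, the cystine carrier), with a signal of 281 with G0s2 siRNA and 27.4 with control siRNA. The 4 lower ones include Fgf21 itself, so the count is not separate from it. The others were Nupr1 (-1.88, a stress-induced nuclear protein), Phgdh (-1.28 and -1.39 at its probes, the first enzyme of serine synthesis) and Stc2. Stc2 was not well above background with G0s2 siRNA, and its bound of 2.75-fold lower (-1.46) had a scanner error of 0.461. Mlxipl, which encodes ChREBP, was at 0.03. Of its 11 genes 1 was higher, Gpd1 (1.06), and 2 were lower, Thrsp (-1.66) and Arrdc4 (-1.02, and -2.36 at its other probe). Mlx, the dimer partner of ChREBP, was next in size and was within 2-fold at 0.81.

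In the list of EGF-like ligands and ErbB receptors around Nrg4, 12 of 17 genes were measured, 1 was higher and 0 were lower, with a median of -0.08. The higher gene was Tgfa, an EGF receptor ligand, with a signal of 127 on the G0s2 siRNA array and 18.9 on the control siRNA array and a difference of 1.95 ± 0.32. Erbb4, the receptor NRG4 binds, was not well above background on either array. Erbb3, the other receptor reported to bind it, was at 0.33. Egfr was at -0.92, with -0.49 and -0.29 at its other probes, and Erbb2 was at -0.68. Errfi1, an inhibitor of these receptors, was at 0.69.

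Of 14 measured genes among the angiopoietin-like proteins and lipoprotein lipases, 1 was higher and 0 were lower, with a median of 0.33. The higher gene was Lipc (hepatic lipase), 2.92-fold, with a signal of 495 with G0s2 siRNA and 97.3 with control siRNA. Lpl, the lipase that ANGPTL4 inhibits, was at 0.20 and at -0.23 at its other probe, and Gpihbp1, its anchor on capillaries, was at -0.09. Angptl8, an angiopoietin-like protein linked to feeding, was at -0.66. Pcsk6, a proprotein convertase, was at 0.86 and Apoa5 at -0.77. Lipg was not well above background on either array.

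In the growth hormone and IGF list, 19 of 25 genes were measured, 1 was higher and 4 were lower, with a median of 0.02. Igfbp1, an IGF binding protein of the liver, was 3.17-fold higher, with a signal of 62013 on the G0s2 siRNA array and 11232 on the control siRNA array. The feedback inhibitors Socs1 and Socs2 were lower, at -2.22 and -1.85, and the other Socs2 probes gave -1.77 and -1.35. Socs3 and Cish, further inhibitors of this kind, were within 2-fold at 0.51 and 0.15, and were named after their values were seen. Igfbp6 was at -1.17. Igfbp7 was dim with G0s2 siRNA, and its bound of 2.23-fold lower (-1.16) had a scanner error of 0.675. Within 2-fold were Igfbp2 (-0.82), Igfbp3 (-0.04) and Igfbp4 (0.84), while Igfbp5 and Igf1r were not well above background. The receptor and its signal carriers differed little, with Ghr at -0.21, Stat5a at 0.11 and Stat5b at 0.28, and Igfals, which holds IGF1 in its plasma complex, was at -0.10.

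Of 10 measured genes of the type 3 cystatin and mineral-binding list, 0 were past 2-fold, and the median was -0.38. Alpl, the tissue-nonspecific alkaline phosphatase, was at -0.84, Spp1 at -0.55 and Cstb at -0.50. For LECT2, the receptor gene Met was at -0.19 and Tie1 was not well above background. Of the 11 measured genes of its list, which also holds beta-catenin targets, Rnf43 was higher (1.02), and Rhbg (-1.52) and Slc1a2 (-1.37), carriers of ammonium and of glutamate, were lower. Its median was -0.11.

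Of 30 measured genes for other secreted liver factors, 2 were higher and 5 were lower, with a median of 0.27. The higher ones were Thpo (thrombopoietin, 1.33 and 0.42 at its probes) and Ctsd (cathepsin D, 1.13 and 1.79). Among the lower ones were genes of the activin system, with Inhbe at -1.32, Inhba at -1.16, Inhbc at -1.02 and Fst, which binds activin, at -1.09. The fifth was Hamp, the iron hormone hepcidin, at -1.001. Inhbc, Fst and Hamp were named because the count is 5, after their values were seen, and the activin genes were likewise grouped afterwards. Inhba, Inhbc, Fst and Hamp passed 2-fold by less than their scanner errors. So did Fgfr1, Fgf1, Dusp6, Cyp4a14, Gpd1, Arrdc4, Igfbp6, Rnf43, Ctsd and Hnf4a at the probes standing for them. In the list of 20 liver transcription factors 2 were higher, Hnf4a (1.04) among them, and 1 was lower, Nr0b2. Nr0b2 was dim with G0s2 siRNA, and its bound of 2.04-fold lower (-1.03) had a scanner error of 0.505. That list's median was 0.20, with Nr1h4 (the bile acid receptor) at 0.69 and Esr1 at -0.68.

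**Figure D4:**
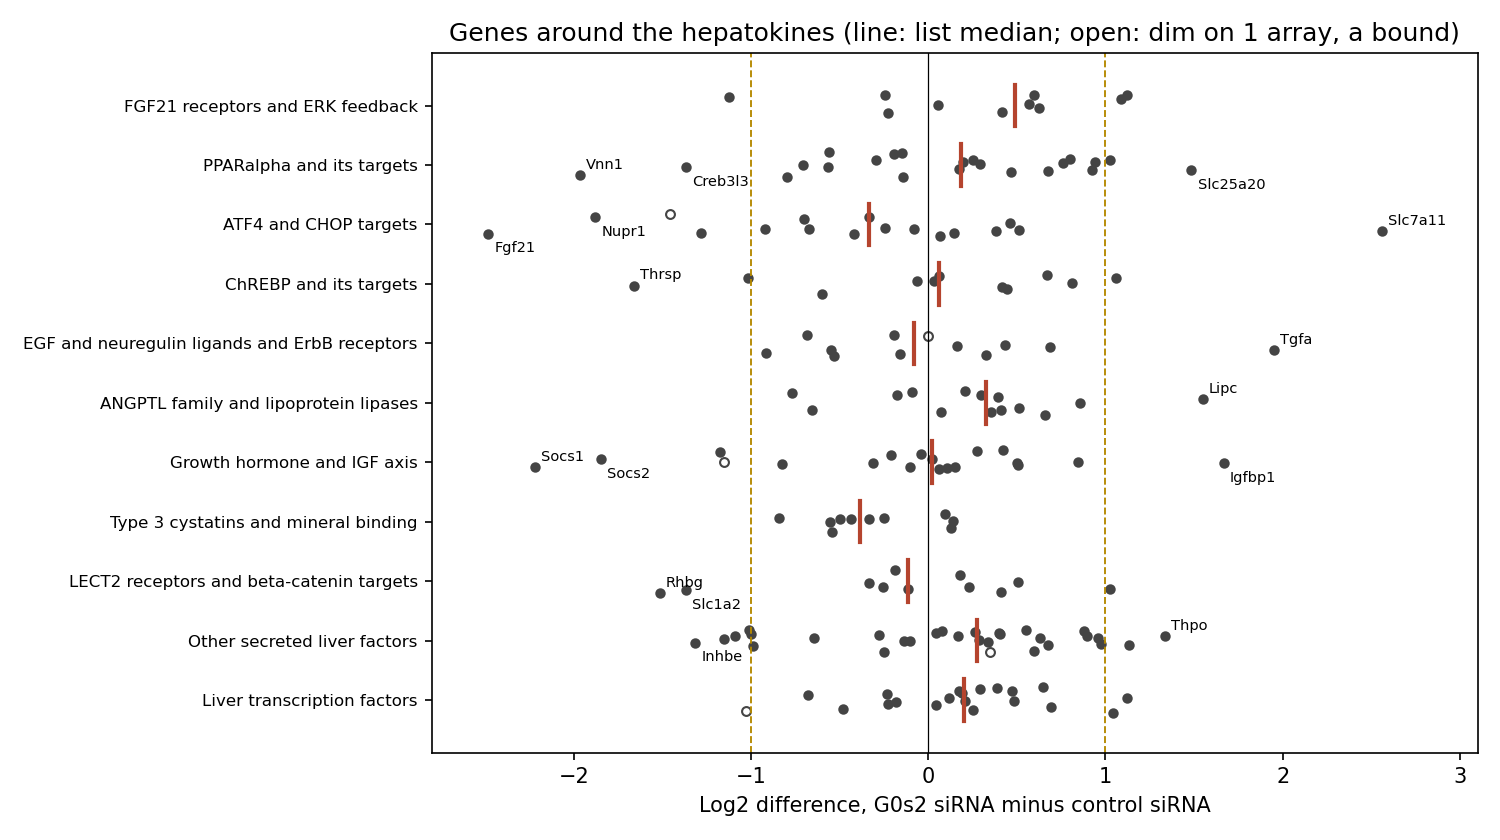
Log2 difference, G0s2 siRNA minus control siRNA (x axis), of each measured gene in 11 lists around the hepatokines (rows), with the list's median as a vertical line and the genes farthest from 0 labelled; open points are bounds. Medians lie between -0.38 and 0.49, and genes past the dashed 2-fold lines lie on both sides in most lists.

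The cell type label was read against marker genes. All 11 hepatocyte markers were well above background on both arrays, with a summed level of 10.96 with G0s2 siRNA and 10.78 with control siRNA, and Alb (albumin) was at 0.30. They did not all move alike, since Cps1 was at 2.96 and Hnf4a at 1.04. Markers of other liver cells were also seen. Of 11 macrophage markers 10 were measured (summed level 3.69 with G0s2 siRNA and 3.81 with control siRNA), of 10 endothelial markers 8 were (2.95 with G0s2 siRNA and 3.32 with control siRNA), and of 10 cholangiocyte markers 7 were (2.15 with G0s2 siRNA and 2.96 with control siRNA). A summed level follows the brightest markers. By gene, 7 of 10 macrophage markers were positive (median difference 0.25), as were 5 of 8 endothelial (0.59) and 1 of 7 cholangiocyte markers (-0.87). Kdr, the brightest endothelial marker, was at -0.51 and at 1.27 at its other probe, and was named after its values were seen. Of 10 stellate markers 5 were measured, at 1.15 with G0s2 siRNA and 0.16 with control siRNA, and Lrat, Des, Pdgfrb, Reln and Hand2 were not well above background. By gene, 3 of the 5 were positive (median 0.29), and Dcn, at 1.12, was the brightest of them. Of 11 lymphocyte and neutrophil markers 4 were measured, at 2.51 with G0s2 siRNA and 2.40 with control siRNA, without Ptprc, and of 6 red cell markers 3 were, at -1.32 with G0s2 siRNA and -0.69 with control siRNA. By gene, 1 of 4 lymphocyte and neutrophil markers was positive (median -0.35), and 2 of 3 red cell markers were (0.08). For both of these groups the median and the summed level went opposite ways. The part of these shifts in the hepatokine values was not tested, and fewer cells of a type and less RNA per cell cannot be told apart in such samples.

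The size of the hepatokine differences depended on how the arrays were centred, and the arrays also differed in how many probes stood out from background, 58.2% with G0s2 siRNA and 54.1% with control siRNA. When each array was centred on the median of its own probes above background, the median of all genes was 0.29, Fgf21 was at -2.14 and Nrg4 at 2.78. When centred on 8 spike-in probes, which read RNAs designed to be added in fixed amount, the median of all genes was 1.52, Fgf21 was at -0.91 and Nrg4 at 4.01. Before centring, the spike-in probes themselves differed between the arrays by -0.98 to -0.08 (median -0.74, log2, G0s2 siRNA minus control siRNA). Values with this centring therefore rest on a few probes that disagreed with each other. Fgf21 stayed negative and Nrg4 positive in 12 of 12 alternative settings, and Angptl6, Ahsg and Lect2 stayed positive in the same 12. Angptl4 kept its sign in 11, Fetub in 10 and Igf1 in 8. For the genes with 1 probe, Fgf21 among them, keeping outlier spots, changing the background filter or averaging probes left the value unchanged. Keeping outlier spots or changing the filter also left Nrg4 (2.43) and Igf1 (-0.16) unchanged. A setting that left a value unchanged in this way is no check on that gene. Fgf21 and Nrg4 were also picked with their directions on these arrays known.

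**Figure D5:**
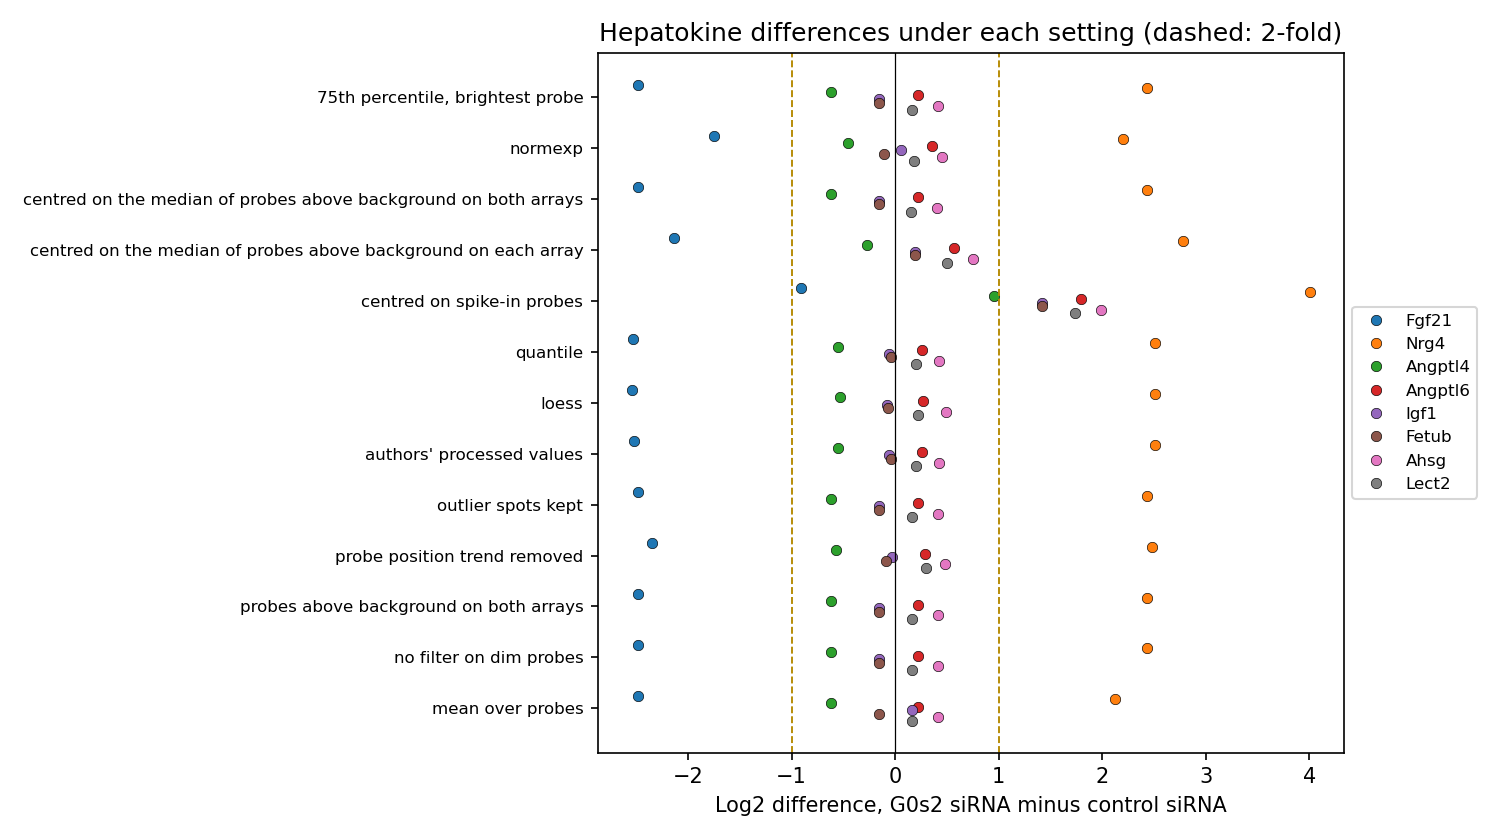
Log2 difference, G0s2 siRNA minus control siRNA (x axis), of the 8 hepatokine genes under the main setting (top row) and 12 alternatives (rows below). Fgf21 runs from -2.54 to -0.91 and Nrg4 from 2.12 to 4.01, and spike-in centring moves all genes to the right.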

How the data were processed

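Per the file headers, the deposited scanner tables give intensity for each spot of an mm9 design, and Agilent Feature Extraction 10.7.1.1, which the submitters' processing notes also name, produced them. Its processed signal, used here, is the intensity left when background has been subtracted, per the file headers. Subtraction alone does not give every value, since some processed signals exceeded the raw mean. For Ahsg with G0s2 siRNA the processed signal was 256654 and the raw mean 253218. The authors' series table holds 39429 intensity values per array with a median of 33.1 in both columns. The sources used here do not give its normalization. It served as an alternative.

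The siRNA was delivered with a lipid reagent in 24-well plates, per the labels' protocols, and 0.5 ug of RNA was amplified and labelled with Cy3. Samples were grouped by their siRNA label. Control and outlier spots were left out, which removed 5 probes and kept 39424. Levels were log2 signals minus each array's 75th percentile. Of the probes, 26408 were named by accession, 3854 by symbol and 734 by synonym through RefSeq of GRCm38.p6, and 8428 had no current symbol. A gene was represented by its brightest probe among those well above background on 1 array or both. Of 15419 genes, 14121 were above background on both arrays, 1039 on the G0s2 siRNA array only and 259 on the control siRNA array only. Where a probe was dim on 1 array, its value there was the higher of its own and the lowest level well above background. The lowest level, where used, gives a bound on the difference that leaves out the scanner's error. A bound with no direction was set to 0.

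With 1 array per group no test was made. The error is the scanner's, propagated to the difference (median 0.20), and does not cover differences between cultures, extractions or labellings, so the number of arrays limits precision. The members, lists and rules were chosen with earlier results of these data known. Genes named were the members, G0s2, the 4 largest differences per list among genes above background on both arrays, direct partners of the members, and the 3 genes nearest to Fgf21 and to Nrg4. A few genes the rule would name are not reported here. Genes past 2-fold as a bound are named to complete small counts.

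Alternatives were normexp (offset 50), other centrings, quantile and loess normalization, the authors' values, outlier spots kept, a lowess trend with probe position removed, other filters, the mean over probes, and rules of 1.5-fold, 3-fold and 2-fold beyond 2 times the scanner's error. Python 3.11.15, numpy 2.4.6, pandas 2.3.3, scipy 1.17.1, statsmodels 0.14.6, matplotlib 3.10.9, R 4.3.3 and limma 3.58.1 were used, and the calculation was tested on simulated data.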

Additional observations from a re-analysis of the deposited data

How the results depend on the processing

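No paired analysis was possible because each group has 1 array, and no array could be left out. With normexp, Fgf21 was at -1.75, and 377 genes passed 2-fold upward and 515 downward, against 742 and 842. Centred on spike-in probes, Fgf21 was at -0.91 and Nrg4 at 4.01, so that 6 hepatokine genes passed 2-fold upward and 0 downward, with 85.0% of all genes higher and 0.246% lower. At a 1.5-fold rule 2 were lower, Fgf21 and Angptl4. Higher genes made up 46.8% of those past 2-fold, against 81.4% (1646 higher and 376 lower) with each array centred on its own median, a setting added after the data were seen, and 99.7% with spike-in centring. With no filter on dim probes 1523 genes were higher and 1455 lower. The Nrg4 to Fgf21 gap ran from 3.95 with normexp to 5.06 with loess. Of 132 list medians (11 lists, 12 settings), 114 stayed within their spread and 18 moved, 11 of them with spike-in centring. Keeping outlier spots or dropping the filter on dim probes left most medians as they were, so those settings are weak checks. The other moved medians came with each array centred on its own median, apart from that of other secreted liver factors with normexp. The cause of these shifts was not tested. Fgf21, whose signal was 44.6 with G0s2 siRNA, had a scanner error of 0.24, against a median of 0.20 over genes.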
